A study of Homo sapiens
Mus musculus with 2 samples.

Results

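Intraepithelial lymphocytes were studied among single cells of the mouse colonic epithelium. The members were chosen by measured counts, as the barcodes that carried at least 1 UMI in each of at least 3 of 13 leukocyte genes. The genes were Ptprc, Cd52, Cd53, Cd7, Gzma, Gzmb, Ccl5, Srgn, Trbc2, Trac, Tcrg-C2, Itgb2 and Ptprcap. A UMI (unique molecular identifier) marks 1 captured RNA molecule, and a barcode stands for 1 droplet. The rule found 85 of 2402 barcodes. The data are 2 libraries, replicates 1 and 2, of colonic epithelial cells from 1 untreated wild-type C57Bl6 mouse. Per the labels' protocols, EDTA and then collagenase with DNase released the cells, MACS (magnetic sorting) enriched the living ones, and K562 cells, a human leukaemia line, were mixed in before encapsulation by inDrop, a droplet method. The protocols name no step that selects or removes lymphocytes. The lymphocyte barcodes held 155417 UMIs in replicate 1 and 123092 in replicate 2, and the other barcodes 8447073 and 3828826. There is a single group, so nothing was compared between conditions. Every comparison is between lymphocyte barcodes and all other barcodes of the same library. The p-values rest on a spread between 2 libraries of 1 animal, which may be technical and was pooled over genes. A gene's own difference between the libraries has little weight in them.

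Intraepithelial lymphocytes are T cells that live between the epithelial cells of the gut. Many are held there by the integrin CD103, which binds E-cadherin on epithelial cells. They include cells with an alpha-beta receptor and cells with a gamma-delta receptor, and many carry CD8 as a pair of alpha chains rather than as the alpha-beta pair of conventional cytotoxic T cells. They are known for stored granzymes, chemokines and natural killer receptors. Position in the tissue was not measured here, so cells from between epithelial cells and cells from the lamina propria below cannot be told apart.

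The lymphocyte barcodes numbered 64 of 1738 in replicate 1 (3.68%, 95% exact binomial interval 2.85% to 4.68%) and 21 of 664 in replicate 2 (3.16%, 1.97% to 4.79%). The 2 intervals overlap, and they cover counting error only. In replicate 1 these barcodes held a median of 1719 UMIs (range 1025 to 11635) against 4752.5 in the other barcodes. In replicate 2 they held a median of 4492 UMIs (1348 to 19983) against 4772. The lymphocyte barcodes of replicate 1 were thus shallower than their neighbours. With every barcode thinned to 1000 UMIs, 2.87% of all barcodes met the rule instead of 3.54%.

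Most members lay well above the threshold, while more barcodes lay just under it than just over it. Of the 85, 76 had 5 or more of the rule genes and 9 had 3 or 4, whereas 61 barcodes had exactly 2 and 513 exactly 1. The median was 9 rule genes in replicate 1 and 6 in replicate 2, and the highest count was 13 and 10. Ptprc, which encodes the leukocyte phosphatase CD45, was the gene found in 172 of the 328 barcodes with exactly 1 rule gene in replicate 1, and in 125 of 185 in replicate 2. Ptprc alone was therefore a weak mark of a lymphocyte in these libraries.

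**Figure D1:**
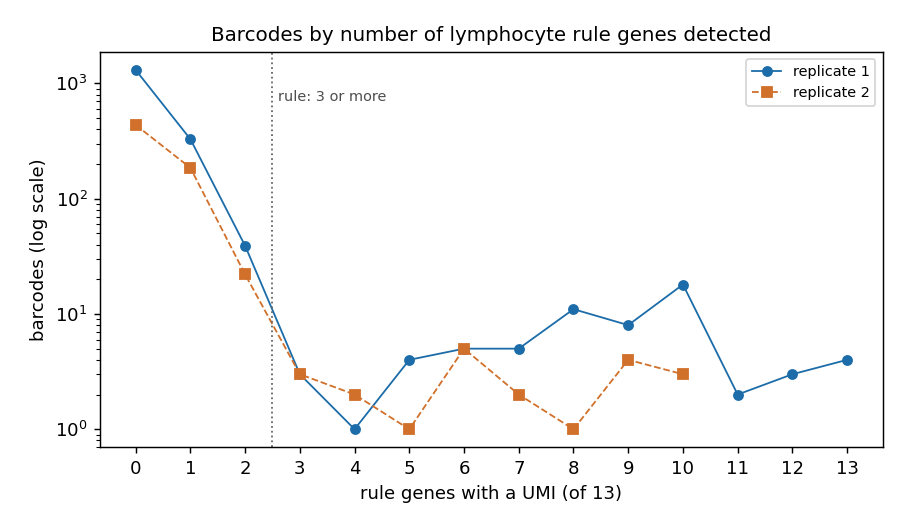
Number of barcodes (log axis) by the number of rule genes with a UMI, for replicate 1 (circles, solid line) and replicate 2 (squares, dashed line). The counts fall steeply from 0 to 2 genes (1307, 328 and 39 barcodes in replicate 1) and form a second, low group from 5 genes upward, with the dotted line at the rule's threshold of 3.

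Genes outside the rule separated the barcodes at nearly the same place. The 12 genes examined were Cd3d, Cd3e, Cd3g, Cd247, Trbc1, Tcrg-C1, Tcrg-C4, Cd8a, Lck, Nkg7, Klrd1 and Itgae, which T cells and cytotoxic lymphocytes are known for. At least 2 of them were found in 53 of 60 replicate 1 barcodes with 5 or more rule genes, and in 15 of 16 in replicate 2. Among barcodes with exactly 2 rule genes the counts were 0 of 39 and 1 of 22. Barcodes with 3 or 4 rule genes lay between, with 2 of 4 and 1 of 5. The depth of these groups differed, with a median of 1906 UMIs for barcodes with 5 or more rule genes and 6406 for those with exactly 2, so the group with more T cell genes was the shallower. The barcodes with 3 or 4 genes had a median of 5979 UMIs. Of the 12 genes, Trbc1, Tcrg-C1 and Tcrg-C4 closely resemble the rule genes Trbc2 and Tcrg-C2. Their counts are not independent of the rule, and the separation was not counted without them.

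**Figure D2:**
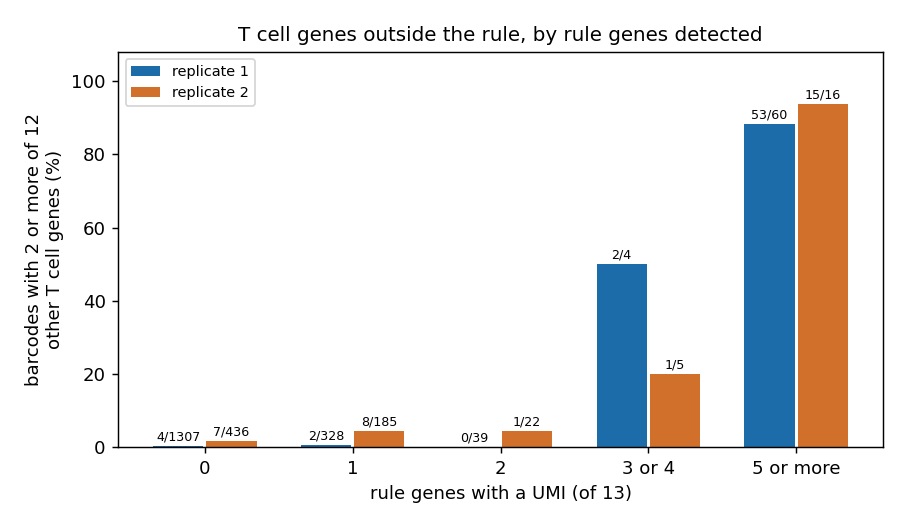
Percentage of barcodes with a UMI in at least 2 of 12 T cell genes that the rule did not use, by the number of rule genes detected, with counts above the bars. Trbc1, Tcrg-C1 and Tcrg-C4 among the 12 closely resemble rule genes. Barcodes with 0 to 2 rule genes stay below 5% in both libraries (blue, replicate 1; orange, replicate 2), and those with 5 or more reach 88.3% and 93.8%.

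T cell markers were found in most, but not all, of the lymphocyte barcodes, which the choice by rule genes fixed in part. The 16 markers of T cells or intraepithelial lymphocytes, 7 of them rule genes, summed to 17379 CPM (UMIs per 1e6 UMIs of a sum) in the lymphocyte barcodes of replicate 1 and 4931 CPM in replicate 2, against 76.5 and 119 CPM in the other barcodes. All 16 had a UMI in replicate 1, and 15 in replicate 2, where Cd4 was at 0. A CD3 or receptor constant gene was found in 59 of 64 and 17 of 21 lymphocyte barcodes, some of these genes being in the rule. A CD3 gene, none of which is in the rule, was found in 42 of 64 and 12 of 21. The summed levels and the counts that include rule genes are therefore a description and no check of the label.

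Some exceptions could be named from single barcodes, which were picked out after their values had been seen. In replicate 1, 3 barcodes took 28.9% to 37.6% of their UMIs from immunoglobulin genes and held no UMI of the 15 T cell genes examined, as antibody-secreting plasma cells do. They met the rule through Cd52, Cd53, Srgn and, in some, Ptprc, Itgb2, Ptprcap or Gzma. A barcode of replicate 2 held 494 UMIs of Mcpt1 and 426 of Mcpt2, the proteases of mucosal mast cells, among 4492 UMIs, with 9 UMIs of Cpa3 and 2 of Kit. It passed through 11 UMIs of Gzma, 6 of Gzmb and 1 each of Ptprc, Cd52, Srgn and Ptprcap, and had none of Cd3d, Cd3e or Cd3g, but 1 UMI each of Cd247 and Trdc and 4 of Itgae. A pair of replicate 1 barcodes without any receptor gene held the B cell genes Ighm, Igkc and Cd79a. Of the 2 replicate 2 barcodes without a receptor gene that were not mixed (defined in the next paragraph), one held Itgax and Flt3, which dendritic cells express. The other held Cd7, Gzma, Ptprc, Ptprcap and Fcer1g among 13395 UMIs. Mixed barcodes of replicate 2 with 7927 and 4935 UMIs also held no UMI of a CD3 or receptor constant gene.

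Epithelial RNA was present in every lymphocyte barcode. The measure was the share of a barcode's UMIs that came from marker genes of goblet cells, deep crypt secretory cells, colonocytes or epithelial cells in general. In 3 barcodes of replicate 1 and 8 of replicate 2 this share was at or above the median of the other barcodes (7.97% and 6.41%). They are called mixed barcodes below. This is a cut rather than a gap, since their shares began at 8.13% and 6.55%, while those of the barcodes that were neither mixed nor immunoglobulin-rich reached 6.94% and 5.50%. The mixed barcodes held 5595 to 11635 UMIs in replicate 1 and 4935 to 19983 in replicate 2. They supplied 15.9% of the lymphocyte UMIs of replicate 1 but 63.2% of those of replicate 2. Whether a mixed barcode holds a lymphocyte and an epithelial cell together was not tested.

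The mucus lectin Zg16, a goblet cell product, measured this RNA in single barcodes. All 64 and all 21 lymphocyte barcodes had a Zg16 UMI, as did 1629 of 1674 and 623 of 643 other barcodes. In the 58 replicate 1 barcodes that were neither mixed nor immunoglobulin-rich, Zg16 ranged from 2 to 22 UMIs with a median of 7, and in the 13 of replicate 2 from 1 to 17 with a median of 6. The medians of the other barcodes were nearly the same in UMIs, 8 and 9, but those barcodes reached 2037 and 1981. Among barcodes of 1000 to 2500 UMIs the medians were 7 in 51 lymphocyte barcodes against 9 in 463 other barcodes of replicate 1, and 5.5 in 8 against 13 in 171 of replicate 2. A low Zg16 count was thus common to nearly all droplets. The 8 mixed barcodes of replicate 2 ranged from 1 to 2190 UMIs with a median of 57, and 1 of them held 2190 of the 5003 Zg16 UMIs of that lymphocyte sum.

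**Figure D3:**
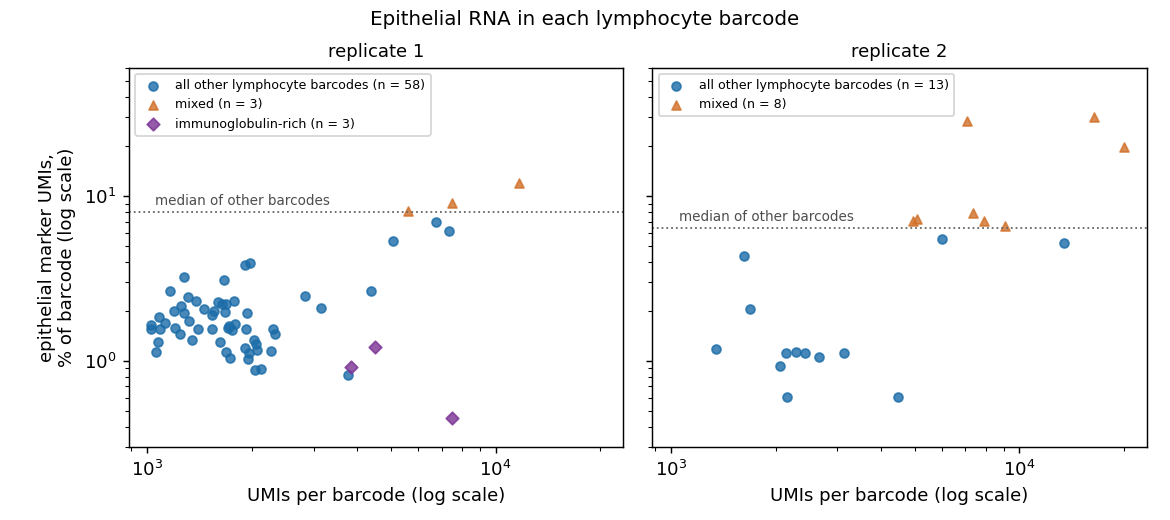
Share of UMIs from epithelial marker genes (log axis) against UMIs per barcode (log axis) for each lymphocyte barcode, by library. The 3 and 8 mixed barcodes (triangles) lie above the dotted median of the other barcodes and are among the deepest, the 3 immunoglobulin-rich barcodes (diamonds) lie lowest for their depth, and the remaining barcodes (circles) lie below the line.

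The 13 rule genes are given as a description, since they chose the barcodes. Ccl5, a chemokine that draws T cells, was the most abundant in replicate 2, with 230 UMIs in 14 of 21 barcodes, and had 782 UMIs in 46 of 64 barcodes of replicate 1. Gzma, a granule protease, had 810 UMIs in 29 barcodes of replicate 1, up to 147 in a single barcode, and 102 in 12 of replicate 2. Srgn, the proteoglycan core of granules, was the most widespread in replicate 1, in 58 of 64 barcodes, against 22 of 1674 other barcodes. Cd7, a surface protein of T and natural killer cells, was found in 48 of 64 and 15 of 21. Ptprc was found in 53 of 64 and 17 of 21 lymphocyte barcodes, and in 196 of 1674 and 144 of 643 others. Outside Ptprc, the other rule genes were found in at most 3.73% of the other barcodes in either library.

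Constant genes of both types of T cell receptor were found. A CD3 gene (Cd3d, Cd3e, Cd3g or Cd247), part of the signalling unit of every T cell receptor, had a UMI in 42 of 64 barcodes of replicate 1 and 12 of 21 of replicate 2. The shares among other barcodes were 2.99% and 6.69%. After thinning to 1000 UMIs per barcode the shares were 53.1% against 0.836% in replicate 1, and 38.1% against 1.24% in replicate 2. An alpha-beta constant gene (Trac, Trbc1 or Trbc2) had a UMI in 51 of 64 and 10 of 21 barcodes. A gamma constant gene (Tcrg-C1, Tcrg-C2 or Tcrg-C4) had one in 57 of 64 and 14 of 21. Gamma constant genes were thus found at least as often as the alpha-beta ones. Gamma chain RNA is also known from alpha-beta T cells and does not by itself mark a gamma-delta cell.

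Trdc, the delta chain constant gene, was the gene that could mark gamma-delta cells, and it had the highest background of the receptor genes. It had a UMI in 25 of 64 and 11 of 21 lymphocyte barcodes, and in 170 of 1674 (10.2%) and 86 of 643 (13.4%) others. After thinning the shares were 32.8% against 1.91% in replicate 1 and 33.3% against 2.33% in replicate 2. The level in the lymphocyte sums was 746 and 252 CPM, against 22.1 and 28.5 CPM.

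Among the 71 barcodes that were neither mixed nor immunoglobulin-rich, 39 had an alpha-beta constant gene without Trdc, 10 had Trdc without an alpha-beta gene, 18 had both and 4 had neither. A gamma constant gene was found in 37 of the 39, 9 of the 10 and all 18. The barcode rich in mast cell proteases, which had 1 UMI of Trdc and no gamma constant gene, is 1 of the 10. At a median of 1676 UMIs per barcode in replicate 1 and 2286 in replicate 2, a gene with no UMI may still be expressed, so the 39 and the 10 do not count cells of each lineage. The T cell receptor variable genes could not help, since the 136 listed had 6 UMIs in all lymphocyte barcodes together.

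CD8 was seen mostly as its alpha chain. Cd8a had a UMI in 32 of 64 and 10 of 21 barcodes, against 10 of 1674 and 19 of 643 others. Cd8b1, the beta chain, had one in 5 of 64 and 1 of 21, against 4 of 1674 and 4 of 643 others. Cd4, which marks helper T cells, was found in 2 of 64 barcodes and in 0 of 21, which allows a share of up to 14.3%. In the other barcodes its share was 1.61% and 3.27%, and these few UMIs cannot be told apart from that background. Cd8a was found in 27 of the 39 barcodes with alpha-beta genes only, in 4 of the 10 with Trdc only and in 7 of the 18 with both. All 6 barcodes with Cd8b1 in the set of 71 were among the 39. These are counts without a test.

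**Figure D4:**
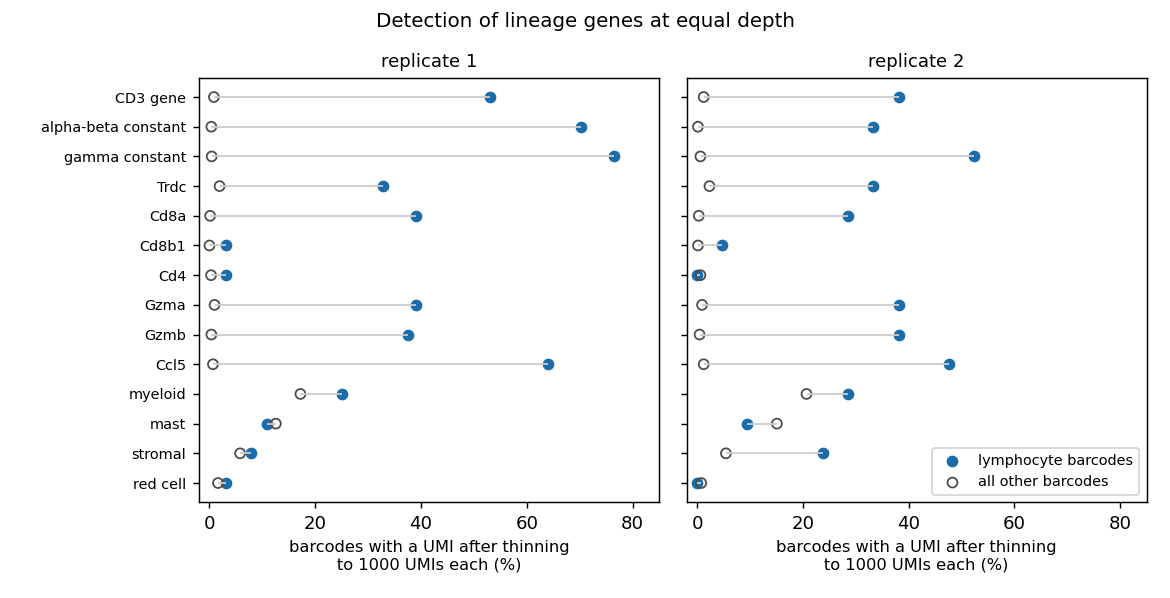
Percentage of barcodes with a UMI of each gene or gene set after thinning every barcode to 1000 UMIs, for lymphocyte barcodes (filled) and all other barcodes (open), by library. Receptor, Cd8a, granzyme and Ccl5 shares are far above the open circles in both libraries, Cd4 and red cell markers are close to them, and several of these genes are in the rule.

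Granzymes were not found in all barcodes. Of the 58 barcodes of replicate 1 that were neither mixed nor immunoglobulin-rich, 24 had both Gzma and Gzmb, 4 only Gzma, 6 only Gzmb and 24 neither. Of the 13 in replicate 2 the counts were 5, 3, 2 and 3. Of the 24 without a granzyme, 11 had Ccl5. A granzyme was found in 21 of 31 replicate 1 barcodes with Cd8a and in 13 of 27 without it, and in 5 of 7 and 5 of 6 in replicate 2. The 6 replicate 2 barcodes without Cd8a include the one rich in mast cell proteases, which had both granzymes. No test was made of genes that chose the barcodes.

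Across all genes, UMIs were summed over the lymphocyte barcodes and over all other barcodes of each library and compared by edgeR's quasi-likelihood test, with the library as a block. Of 17191 genes tested outside the rule, 238 were higher in lymphocyte barcodes (1.38% of the genes tested) and 91 were lower (0.529%) at an adjusted p under 0.05. Since the barcodes were chosen for leukocyte genes, the tests describe what else these barcodes hold. Of the 238, 229 had a UMI in at least 5 lymphocyte barcodes and 13 had 50% or more of their lymphocyte UMIs in 1 barcode. The same test without the mixed and immunoglobulin-rich barcodes, added after the data had been seen, gave 269 higher (1.57%) and 979 lower (5.72%). Shared between both were 214 higher genes, 89.9% of the first list and 79.6% of the second.

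Log2 fold changes (± SE) depend on how the sums are scaled, which placed the median of all genes at -0.37, and at -0.65 without the mixed and immunoglobulin-rich barcodes. With UMI totals in place of scaling factors the median was -0.05 and the calls were 273 higher and 26 lower, so that 91.3% rather than 72.3% of calls were higher. Without the mixed and immunoglobulin-rich barcodes, UMI totals gave a median of -0.07 with 471 higher and 388 lower genes. The count of lower genes thus moved more with the scaling than that of higher genes. Of all genes tested, 202 reached the filter on low counts only through the lymphocyte barcodes and so were bound to lean higher, among them 47 of the 238. The number of such genes is given for each list.

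The receptor genes outside the rule were all higher. The T cell receptor and CD3 list has 12 genes, of which 3 are in the rule. Of the 8 tested all rose (median log2 fold change 5.82, against -0.37 for all genes), and 4 of them, Tcrg-C1, Tcrg-C4, Trbc1 and Cd3e, reached the filter only through the lymphocyte barcodes. Tcrg-C1 had 71 UMIs in 29 barcodes of replicate 1 (457 CPM against 0.592) and 24 in 8 barcodes of replicate 2 (195 CPM against 0.261), a difference of 9.08 ± 0.64. Tcrg-C4 differed by 7.85 ± 0.60 and Trbc1 by 7.47 ± 0.79. These 3 closely resemble the rule genes Tcrg-C2 and Trbc2, and how reads of such copies were assigned is not given in the sources used here, so their counts are uncertain and not independent of the rule. The CD3 chains resemble no rule gene in this way. Cd3e differed by 6.11 ± 0.75, Cd3g by 5.54 ± 0.57, Cd3d by 5.50 ± 0.63 and Cd247 by 3.53 ± 1.00. Trdc, with its higher level in the other barcodes, differed by 3.85 ± 0.49, between Cd247 and the other CD3 chains.

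Of the 2 coreceptor genes tested, Cd8a rose and Cd4 did not pass. Cd8a had 82 UMIs in replicate 1 (528 CPM against 1.18) and 25 in replicate 2 (203 CPM against 5.48), a difference of 6.65 ± 0.56 (edgeR adjusted p = 3.09e-29). Cd4 had 4 UMIs and none, a difference of 1.35 ± 1.30 (adjusted p = 0.926). Cd8b1 had too few UMIs to be tested.

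Genes that carry the receptor signal rose in part. Of 31 genes in the signalling list 26 were tested, 2 of them through the lymphocyte barcodes only, and 14 were higher and 0 lower (median 2.65). Lck, the kinase that starts the signal, had 62 UMIs in 38 barcodes and 24 in 9, at 399 and 195 CPM against 3.08 and 4.44, a difference of 5.98 ± 0.52 (edgeR adjusted p = 6.15e-27). Thy1, a surface protein of mouse T cells, differed by 6.77 ± 0.59, having been tested only through the lymphocyte barcodes. The next genes act after Lck. The adaptor Lat differed by 4.92 ± 0.71 and Zap70, the kinase that binds CD3, by 4.25 ± 1.03. Ptpn22, a phosphatase that restrains the signal, differed by 4.77 ± 0.54 and the adaptor Sla by 3.85 ± 0.50. The costimulatory receptor gene Cd27, with 8 and 5 UMIs, differed by 3.13 ± 0.85 (edgeR adjusted p = 0.015). Tnfrsf9, another such receptor and a member of the cytokine receptor list, was tested only through the lymphocyte barcodes and differed by 4.57 ± 0.99. Cd28, Ctla4 and Icos were low. Cd28 had 11 UMIs and 1 (1.82 ± 0.76, adjusted p = 0.313), Ctla4 3 and 0, and Icos 3 and 0. The adaptor Lcp2 and Ubash3a were at 0 in both libraries. A count of 0 allows up to 3 UMIs in a sum, or 19.3 CPM in replicate 1 and 24.4 CPM in replicate 2, so lower levels were not detectable.

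Cytotoxic granule genes beyond the rule rose in part. The list has 18 genes, of which 3 are in the rule and 11 were tested, 3 of these through the lymphocyte barcodes only. Of the 11, 5 were higher and 0 lower (median 3.13). Lamp1, a lysosomal membrane protein gene, was lower without the mixed and immunoglobulin-rich barcodes (-1.21 ± 0.36, edgeR adjusted p = 0.0161), but did not pass there with UMI totals. Nkg7, a granule membrane protein, had 51 UMIs in 25 barcodes of replicate 1 (328 CPM against 0.592) and 15 in 9 of replicate 2 (122 CPM against 1.83), a difference of 7.34 ± 0.60. Ctsw, a protease of cytotoxic cells, differed by 7.17 ± 0.65. Cst7, an inhibitor of granule proteases, differed by 4.86 ± 0.94, Serpinb6b by 3.35 ± 0.66 and Fasl, the ligand of a death receptor, by 3.73 ± 0.79. Nkg7, Ctsw and Cst7 are the 3 that reached the filter only through the lymphocyte barcodes. The pore-forming protein gene Prf1 and the granzyme gene Gzmm were at 0 UMIs in both libraries. Prf1 and Gzmm below the limit of 19.3 and 24.4 CPM would not have been seen. Gzmk had 5 UMIs and 1 (3.13 ± 1.36, adjusted p = 0.35).

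Receptors best known from natural killer cells, listed with checkpoint receptors, gave 8 higher and 0 lower of 16 tested (median 2.96). The list has 24 genes, 1 of them in the rule, and 2 were tested through the lymphocyte barcodes only. Fcer1g, a signalling chain that such receptors share, had 53 UMIs in 24 barcodes and 12 in 7, at 341 and 97.5 CPM against 0.592 and 0.784. It differed by 7.98 ± 0.64. Klrd1, which encodes CD94, differed by 6.90 ± 0.58, Cd96 by 5.77 ± 0.83 and Cd160 by 4.43 ± 0.49. Fcer1g and Cd96 are the 2 tested only through the lymphocyte barcodes. Klre1, Hcst, Cd244 and Klrk1 differed by 3.84, 3.56, 3.55 and 2.93. Of the markers of natural killer cells proper, Ncr1 and Klrb1c did not pass. Ncr1 had 0 UMIs in replicate 1 and 1 in replicate 2, and Klrb1c had 5 and 4 (1.07 ± 0.76, adjusted p = 0.801). Among checkpoint receptors, Lag3 had 4 and 5 UMIs (2.85 ± 1.02, adjusted p = 0.163), Havcr2 0 and 1, and Tigit none.

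Chemokines rose, while helper and inflammatory cytokines were at or near 0. Of 20 listed genes, 1 is in the rule and 11 were tested, 2 through the lymphocyte barcodes only, and 5 were higher and 0 lower (median 1.49). Xcl1, which draws dendritic cells, had 66 UMIs in 27 barcodes (425 CPM against 1.18) and 21 in 10 (171 CPM against 1.83), a difference of 7.30 ± 0.58. Ccl4 differed by 5.66 ± 0.50, with 35 and 42 UMIs, and Ccl3 by 6.32 ± 1.06, where all 6 UMIs of replicate 2 were in 1 barcode. Xcl1 and Ccl3 are the 2 tested only through the lymphocyte barcodes. Ltb, which encodes lymphotoxin beta, differed by 5.16 ± 0.63 and Tnfsf8 by 2.57 ± 0.71, a call that DESeq2 did not make. Tnf, Il10, Il17a, Il22, Tnfsf11 and Cd40lg had no UMI in any lymphocyte barcode. Their absence holds only down to the limits given above.

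Of the receptors for chemokines and cytokines, 28 were listed and 23 tested, 2 through the lymphocyte barcodes only, and 8 were higher and 0 lower (median 2.35). Il2rg, the common chain of several interleukin receptors, had 46 UMIs in 29 barcodes and 24 in 12, at 296 and 195 CPM against 2.37 and 2.35, and differed by 6.36 ± 0.53 (edgeR adjusted p = 2.18e-29). Il2rb, which with Il2rg forms the receptor for IL-15, a growth signal of these cells, differed by 4.21 ± 0.49. Among chemokine receptors, Cxcr6 differed by 5.60 ± 0.60 and Cxcr4, tested only through the lymphocyte barcodes, by 4.99 ± 1.04, and the lipid-type receptor gene Gpr18 by 5.16 ± 0.62. The gut-homing receptor Ccr9 had 7 UMIs in 4 barcodes and 5 in 1 barcode (3.04 ± 0.87, adjusted p = 0.0296). Ccr7, a gene of circulating or naive T cells, had 1 and 1 UMIs (-0.60 ± 1.33). Il7r had 3 and 1 UMIs (2.78 ± 1.70), and neither passed. The colon-homing receptor Gpr15 was at 0.

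Genes of adhesion and residence in tissue gave 8 higher and 0 lower of 15 tested (median 2.97), of which Cd48 and Itgb7 were tested only through the lymphocyte barcodes. Itgae, the alpha chain of CD103, had 47 UMIs in 29 barcodes of replicate 1 (302 CPM against 2.25) and 21 in 9 of replicate 2 (171 CPM against 8.88), and differed by 5.35 ± 0.51 (edgeR adjusted p = 2.02e-22). Its partner Itgb7 differed by 5.15 ± 0.87, with 13 and 6 UMIs. Cd48, a ligand of Cd244, differed by 7.56 ± 0.63, the selectin ligand Selplg by 5.99 ± 0.58 and Amica1, a junctional adhesion molecule partner, by 4.61 ± 0.56. Cd69, a mark of resident T cells, had 9 and 3 UMIs (2.13 ± 0.77, adjusted p = 0.163). Cd44 had 28 and 12 UMIs (1.51 ± 0.46, adjusted p = 0.0519). It passed without the mixed and immunoglobulin-rich barcodes (1.72 ± 0.47, edgeR adjusted p = 0.00647).

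Transcription factors gave 8 higher and 0 lower of 30 tested (median 0.72), with 0 tested through the lymphocyte barcodes only. Ets1 had 74 UMIs in 43 barcodes (476 CPM against 6.87) and 23 in 10 (187 CPM against 13.8), a difference of 4.69 ± 0.50 (edgeR adjusted p = 3.53e-18). Runx3, which keeps the CD8 programme, differed by 4.01 ± 0.60, Tbx21, which encodes T-bet, by 4.16 ± 0.99 and Tcf7 by 3.62 ± 0.80. Ikzf2, which encodes Helios, had 80 and 28 UMIs (3.06 ± 0.46), and Id2 differed by 1.93 ± 0.46. Rora did not pass with all barcodes (2.41 ± 0.74, edgeR adjusted p = 0.0563). Without the mixed and immunoglobulin-rich ones it did (2.74 ± 0.93, edgeR adjusted p = 0.0446). Of factors of other T cell programmes, Foxp3, Eomes and Gata3 passed in neither set. Foxp3, of regulatory T cells, was at 0, and its level of 1.78 and 5.22 CPM in the other barcodes is itself under the limit that a count of 0 allows. Eomes had 0 UMIs in replicate 1 and 1 in replicate 2, and Gata3 had 7 and 0.

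Of 34 genes common to leukocytes 5 are in the rule and 27 were tested, 3 through the lymphocyte barcodes only, and 22 rose and 0 fell (median 3.97). Rac2, a GTPase of blood cells, had 102 UMIs in 43 barcodes and 36 in 12, and differed by 6.16 ± 0.54 (edgeR adjusted p = 4.11e-27). Laptm5 differed by 5.53 ± 0.53, Coro1a by 5.13 ± 0.56 and Lcp1 by 3.97 ± 0.49. Rgs1, which dampens chemokine signals, had 212 and 62 UMIs (4.52 ± 0.56). Of 18 actin and motility genes tested, 3 rose, Vim (5.07 ± 0.54), Wipf1 (2.54 ± 0.55) and Msn (1.81 ± 0.47), the last of which DESeq2 did not call. Tmsb4x, which binds actin monomers, was far more abundant, with 10308 and 4306 CPM against 1893 and 1364. Its difference of 1.74 ± 0.72 (adjusted p = 0.31) did not pass with all barcodes but did without the mixed and immunoglobulin-rich ones (2.00 ± 0.30, adjusted p = 3.09e-09).

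Genes of other cell types rose mainly through a few barcodes. Of 10 tested B or plasma cell markers 6 were higher, and without the mixed and immunoglobulin-rich barcodes 2 of 9 were. Igha, the heavy chain of IgA, had 1419 UMIs in 10 barcodes of replicate 1, up to 767 in 1 barcode, and 3 UMIs in replicate 2 (8.51 ± 1.18, edgeR adjusted p = 2.02e-10). Without the mixed and immunoglobulin-rich barcodes it differed by 4.15 ± 1.23 (adjusted p = 0.0132). Jchain, which joins IgA molecules, differed by 7.56 ± 1.11 with them and 0.38 ± 2.68 without the mixed and immunoglobulin-rich barcodes. Derl3 and Mzb1, of the secretory pathway of plasma cells, had UMIs in the 3 immunoglobulin-rich barcodes only among lymphocyte barcodes. Ighm rose in both sets (6.13 ± 1.01 and 6.57 ± 1.31), with 18 UMIs in 11 barcodes and 2 in 2, and reached the filter only through the lymphocyte barcodes.

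Of 8 mast cell markers tested, Mcpt1 and Mcpt2 were called higher, and 494 of 495 and 426 of 427 of their UMIs were in 1 barcode, so the call describes that barcode. DESeq2 did not call Igha, Jchain, Mcpt1 or Mcpt2. Of 12 tested macrophage, dendritic cell or granulocyte markers only Itgax rose (2.91 ± 0.65, adjusted p = 0.000903), with 10 UMIs in 8 barcodes and 9 in 5. Itgax is also known from intraepithelial T cells. C1qa, C1qc, S100a8 and S100a9 were at 0, and Lyz2 had 0 and 1 UMI. Stromal and endothelial markers gave 0 higher and 0 lower of 12, and tuft or enteroendocrine markers 0 and 0 of 10. These counts are near the shares over all genes tested, 1.38% higher and 0.529% lower. Red cell markers gave 0 higher and 3 lower of 6, which DESeq2 did not call. The summed level of the myeloid list, 270 and 244 CPM, was near that of the other barcodes, 204 and 233 CPM.

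Most colonocyte and general epithelial markers were lower in both libraries (13 of 15 and 16 of 16), with all lymphocyte barcodes. Only 4 of 11 goblet and 5 of 8 deep crypt secretory markers were. In replicate 2 the goblet markers summed to 85952 CPM in lymphocyte barcodes, above the 37682 CPM of the others. How many markers passed depended on the mixed barcodes. With all lymphocyte barcodes, 0 of 11 goblet, 1 of 8 deep crypt secretory, 2 of 15 colonocyte and 1 of 16 general epithelial markers fell, and none rose. Without the mixed and immunoglobulin-rich barcodes, 10 of 11, 3 of 8, 14 of 15 and 14 of 16 fell. With UMI totals these counts were 8, 2, 14 and 12. The mixed barcodes were defined by these same markers, so leaving them out lowers the markers by construction. Counts and values of markers without the mixed barcodes, Zg16 included, are therefore a description only. Zg16 was at 5772 CPM in the lymphocyte sum of replicate 1 against 21184 in the others, but at 40644 against 14538 in replicate 2. Its direction thus differed between the libraries (-0.51 ± 1.19, adjusted p = 0.971). Without the mixed barcodes it was 3466 and 1963 CPM, 16.4% and 13.5% of the level of the other barcodes, and without the immunoglobulin-rich barcodes as well the difference was -3.27 ± 0.32 (edgeR adjusted p = 6.25e-22).

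Among the 10 most lowered genes that the naming rule took, several are products of surface epithelium. Reg3g, an antimicrobial lectin, was at 90.1 and 40.6 CPM against 423 and 229 (-2.68 ± 0.54, edgeR adjusted p = 8.29e-05), and its neighbour in function Reg3b differed by -2.51 ± 0.52. Car1, a carbonic anhydrase of colonocytes, differed by -2.40 ± 0.52. Cyp4f14, Aqp4, Mgst1, Mall, Tfrc, Nov and 1810065E05Rik differed by -2.39 to -2.03. All 10 were also lower without the mixed and immunoglobulin-rich barcodes, where Car1 and Nov are among the markers that defined the mixed ones. DESeq2 did not call Cyp4f14, Mgst1, Mall, Tfrc, Nov or 1810065E05Rik, and with UMI totals 1810065E05Rik did not pass. In the barcodes neither mixed nor immunoglobulin-rich, the 15 colonocyte markers were at a median of 0.164 times the level of the other barcodes in replicate 1 and 0.310 times in replicate 2. For the 11 goblet markers the medians were 0.249 and 0.253, with a range of 0.0609 to 0.610 in replicate 1 and 0 to 1.11 in replicate 2. Both lists helped to define the mixed barcodes, so these levels are low in part by construction.

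**Figure D5:**
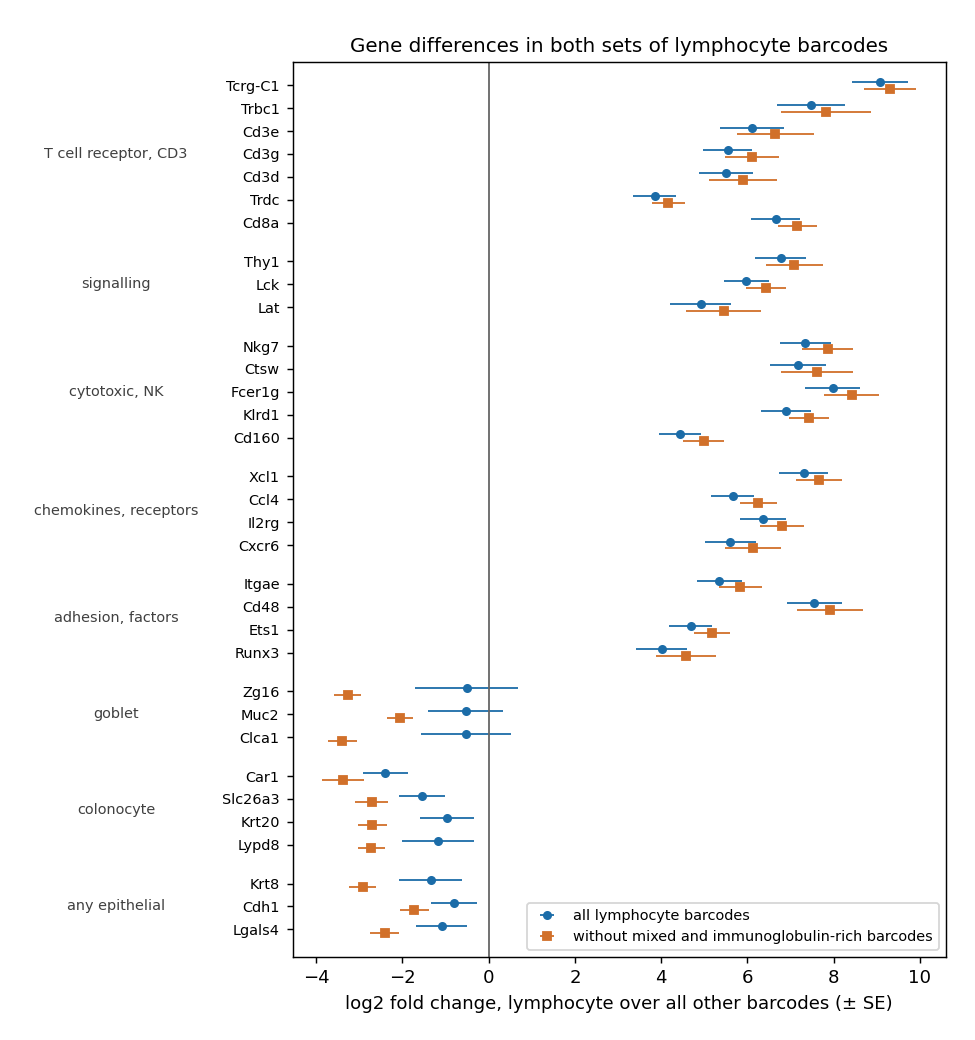
Log2 fold change (± SE) of lymphocyte over all other barcodes for genes of 8 groups, with all lymphocyte barcodes (circles) and without the mixed and immunoglobulin-rich ones (squares). T cell genes lie between 3.85 and 9.31 in both sets, while goblet genes such as Zg16 move from -0.51 to -3.27 when the mixed barcodes are left out. The goblet, colonocyte and general epithelial genes shown are among the markers that defined the mixed barcodes, so their shift is built in.

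General programmes were examined last. Over all genes tested 1.38% were called higher and 0.529% lower, so a count of 0 in a short list is near that share. It shows no lack of a difference. No cell division gene was called among 17 tested, and Top2a had 33 and 4 UMIs (-0.14 ± 0.48). The list had a median of -0.77, against -0.37 for all genes, with 8 genes lower and 2 higher in both libraries. None of 9 tested genes of MHC class I presentation passed with all barcodes, Tapbp was lower without the mixed and immunoglobulin-rich ones (-1.01 ± 0.34, edgeR adjusted p = 0.0424) but not with UMI totals, and the genes of its H2 heavy chains were not analysed here. B2m, the light chain of MHC class I, was at 5714 and 3510 CPM against 4142 and 3679 (-0.12 ± 0.71). Of 22 immediate early and dissociation genes, Hspa1b rose (1.89 ± 0.47, edgeR adjusted p = 0.00463), which DESeq2 did not call. Without the mixed and immunoglobulin-rich barcodes Junb (1.75 ± 0.32), Btg1 (1.60 ± 0.33) and Btg2 (1.11 ± 0.37) rose too, while Atf3 (-2.18 ± 0.59) and Fos (-1.02 ± 0.34) fell, though neither passed there with UMI totals. None of 13 mitochondrially encoded genes passed with all barcodes. Without the mixed and immunoglobulin-rich ones 11 were lower, but 0 were with UMI totals. Cytosolic ribosomal protein genes took a larger part of the RNA, a median of 13.8% of the UMIs in 58 replicate 1 barcodes that were neither mixed nor immunoglobulin-rich, against 5.58% in the others. In replicate 2 the medians were 13.2% over 13 barcodes and 6.31%. Of 83 such genes tested, 0 passed with all barcodes while without the mixed and immunoglobulin-rich ones 3 rose and 1 fell, or 38 rose and 0 fell with UMI totals.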

How the data were processed

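The deposited values are whole-number UMI counts per gene and barcode, made by the authors from inDrop libraries amplified by CEL-Seq, per the labels' protocols. Builds GRCh38 and GRCm38 are named in the submitters' processing notes, and the sources used here give no aligner, annotation, strand setting or barcode filter. The 25504 genes listed are mouse genes in both libraries, and every barcode was used as deposited. Barcode sequences are not in the columns used, so barcodes shared between libraries could not be counted by sequence, and 0 barcodes had identical counts in both. No doublet caller was run. Members, gene lists and tests were chosen with earlier results of these data known.

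UMIs were summed over lymphocyte and over other barcodes of each library, and the 4 sums were compared with edgeR 4.0.16 (R 4.3.3), using TMM factors, genes with at least 20 UMIs over the sums, the quasi-likelihood test with the library as a block and Benjamini-Hochberg adjustment at 0.05. The 13 rule genes were left out of the adjustment. Numbers pair the sums because both classes come from the same library. With 1 residual degree of freedom per gene, the spread rests on all genes together, and SE is the fold change divided by the root of F. The test was run on simulated counts with less spread than these data and with changes placed only in genes of at least 500 UMIs. That check therefore does not cover calls on genes of low count. Genes were named as the 20 highest and 10 lowest past the threshold in both libraries with at least 10 lymphocyte UMIs (the highest also in at least 5 barcodes), up to 6 genes of smallest p per list, and list members at 0. Other genes with values, such as those that did not pass, were chosen after their values were seen. Intervals are exact (Clopper-Pearson), and a count of 0 allows 3 UMIs, or 3 barcodes for a share. Both cover counting error only. Immunoglobulin-rich means at least 5% of UMIs from immunoglobulin genes. Alternatives included DESeq2 1.42.0, other scalings, filters and thinning with numpy 2.4.6 (Python 3.11.15). Some genes of the lists are not reported here.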

Additional observations from a re-analysis of the deposited data

How the results depend on the processing

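The count of higher genes, 238, ranged from 177 to 322 over 14 alternatives and was 471 with UMI totals and without the mixed and immunoglobulin-rich barcodes. Without the replicate block, in which the library is no term of the fit, 306 genes were higher and 126 lower. The count of lower genes, 91, was less stable. It was 47 with DESeq2-type size factors, 4 with DESeq2, 47 with a filter of 50 UMIs, 26 with UMI totals, 10 with TMM from genes with at least 500 UMIs and 29 with the other barcodes thinned to the lymphocyte totals. It was 517 with at least 4 rule genes, 859 without the mixed barcodes, 979 without the mixed and immunoglobulin-rich barcodes, 898 without the mixed barcodes and with free RNA subtracted, and 388 with UMI totals without the mixed and immunoglobulin-rich barcodes. An unadjusted p under 0.05 was reached by 1642 genes. DESeq2 gave no adjusted p for 7672 genes, which count as neither.

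Of 70 higher genes named by rule, all 70 were called with each scaling tried on the full set, without the block, without the mixed barcodes and with at least 4 rule genes, and 60 with DESeq2. Of 15 lower ones, DESeq2 called 4, UMI totals 12 and TMM from genes with at least 500 UMIs 8. The log2 fold change of Derl3 reversed to -5.71 without the immunoglobulin-rich barcodes, -5.63 without those and the mixed ones and -5.61 there with UMI totals, settings in which it had no lymphocyte UMI, so these are fitted values and no bounds. The share of barcodes that met the rule was 3.54%, 6.08% with at least 2 genes, 3.29% with at least 4 and 3.16% to 3.68% when either library was left out. The tests could not be run without a library, which leaves no residual degrees of freedom. As values, the log2 ratios of 12 named genes moved by more than the spread between libraries without replicate 1 (67 did not) and 19 without replicate 2 (63 did not). That spread is the standard deviation of the same 2 ratios, which neither can exceed when the fit lies midway between them. The fit was also scaled while the ratios were not, so these counts do not measure stability between libraries. The planned subtraction of free RNA from the full sums was not run, since in replicate 2 Zg16 was 2.80 times as high in lymphocyte as in other barcodes. The UMI totals, the TMM subset, the joint exclusions and the subtraction without mixed barcodes were chosen after seeing the data. Depth limits low genes most, since the lymphocyte sums held 155417 and 123092 UMIs.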

Other observations

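The genes described here were chosen after their values were seen. The Gimap genes encode small GTPases of lymphocytes. All 8 listed were tested, and 7 were higher and 0 lower. Of the 8, 4 were tested through the lymphocyte barcodes only and so were bound to lean higher: Gimap3, Gimap4, Gimap5 and Gimap6. Gimap3 had 54 UMIs in 29 barcodes of replicate 1 (347 CPM against 0.829) and 8 in 7 of replicate 2 (65.0 CPM against 2.87), a log2 difference of 6.53 ± 0.61. Gimap4 differed by 7.18 ± 0.71, with 30 and 7 UMIs. Gimap8, which was also found in 35 and 19 other barcodes, differed by 3.27 ± 0.76. Gimap9 had 9 and 1 UMIs and did not pass (3.04 ± 1.04, adjusted p = 0.123).

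Several higher genes stood in no list. Dtx1, a known target of Notch signals, had 20 UMIs in 13 barcodes and 10 in 4 (5.44 ± 0.66), and the Notch1 receptor had 6 and 7 UMIs (1.12 ± 0.63, adjusted p = 0.614). Ppp1r18 had 63 UMIs in 33 barcodes and 17 in 10 (6.25 ± 0.55). Chsy1, an enzyme of chondroitin synthesis, had 35 UMIs in 27 barcodes and 12 in 6 (5.32 ± 0.55). The receptor genes Gpr34 and Gpr171, whose products couple to G proteins, differed by 6.57 ± 1.01 and 6.44 ± 0.85, both tested only through the lymphocyte barcodes. Tff1, a mucosal peptide of the stomach, was called higher (6.79 ± 0.78) on 39 UMIs in 3 barcodes of replicate 1, 26 of them in 1 barcode, and was tested only through the lymphocyte barcodes. Without the mixed and immunoglobulin-rich barcodes it had no lymphocyte UMI and was not tested.

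Haemoglobin RNA lay in few barcodes. Hba-a2 had no UMI in lymphocyte barcodes, and in replicate 1 its 790 UMIs in the others lay in 17 of 1674 barcodes, with red cell markers at up to 645978 CPM in a single barcode. With so few carriers, its 0 in 64 lymphocyte barcodes shows no difference. The Klra genes, a family of natural killer receptors, had 19 UMIs over 11 listed genes in lymphocyte barcodes and 61 in the others, and none was tested. The other barcodes held far more UMIs (8447073 and 3828826 against 155417 and 123092). As a share of UMIs the Klra genes were thus higher in lymphocyte barcodes. Mitochondrially encoded genes took a median of 2.44% of the UMIs of lymphocyte barcodes in replicate 1 and 6.18% in replicate 2, against 4.58% and 8.95% in the other barcodes.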
